A study of Mus musculus with 48 samples.

Results

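The comparison described here asked which transcripts of old epidermal stem cells rise and fall with a period of 12 h, so that ZT8 and ZT20 stand together against ZT4 and ZT16. It used the 16 arrays of aged mice taken at these 4 times, 8 at ZT8/20 and 8 at ZT4/16, out of 48 arrays in the series. All mice were wild-type C57B6/J females. Aged mice were 102 to 116 weeks old and young mice 8 weeks old, and 4 mice per age were sampled at each of 6 times of day (ZT0, ZT4, ZT8, ZT12, ZT16 and ZT20). Total RNA of epidermal stem cells from each mouse was amplified and hybridised to a 1-colour Affymetrix array. Signals are log2 values summarised by the authors with RMA, so a difference of 1 is a doubling. The arrays were chosen by the times in the sample titles and not by any measured value. The times are labelled T0 to T20 and are written as zeitgeber times (ZT) here; the light schedule, the purity of the cells and the dates of harvest and hybridisation were not found in the labels.

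Zeitgeber time counts the hours from the start of the light phase. Most daily rhythms in the epidermis follow the circadian clock, in which BMAL1 and CLOCK drive genes for their own repressors, the PER and CRY proteins, once a day. Rhythms that complete a cycle in 12 h have been described in mouse tissues such as the liver, where genes of protein folding, secretion and RNA handling are known for them. A signal that follows a 24 h cosine is as far above its mean at one time as it is below it 12 h later, so it drops out of the average of ZT8 and ZT20 minus the average of ZT4 and ZT16. That average difference, called the contrast below, therefore holds what repeats after 12 h and no 24 h cosine. A change at a single time, or a 24 h rhythm of another shape, can also enter it, so the contrast alone does not show a repeat.

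Markers of basal keratinocytes, the cells that line the base of the epidermis, were strong in aged cells: Krt5, Krt14 and Krt15 averaged 12.68, 12.43 and 12.01 log2. Some markers of suprabasal keratinocytes, the cells above these, were strong as well. The 13 measured ran from 3.07 (Flg) to 11.71 log2 (Krt1) in aged cells, with Krt10 at 11.69 and Sbsn at 11.38. Of 10 bulge markers of the hair follicle, Cd34 and Lgr5 were below the limit of log2 3.96 under which genes were left out as dim. The other 8 were above it, from Lhx2 near the limit (4.07 log2 in aged cells) to bright genes. Among these, Sox9, Nfatc1, Postn and Cd200 averaged 9.60, 9.45, 8.49 and 8.09 log2 in aged cells. Array medians lay between 4.78 and 5.04 over the 48 arrays. Between the 8 arrays of ZT8/20 and the 8 of ZT4/16, 9 technical measures were compared by an exact two-sided permutation test, and their adjusted p ran from 0.551 to 0.964. The smallest p was that of the array median, 4.89 ± 0.02 at ZT8/20 and 4.87 ± 0.02 at ZT4/16 (SD, n = 8 each; exact permutation test, p = 0.0628). The summed level of 9 basal keratinocyte markers was 14.75 to 14.94 at ZT8/20 and 14.83 to 14.97 at ZT4/16. In bulk RNA, fewer cells of a type and less RNA per cell cannot be told apart.

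In aged cells 202 genes were higher and 172 were lower at ZT8/20 than at ZT4/16. These 374 genes are 2.92% of the 12823 tested (limma, Benjamini-Hochberg adjusted p under 0.05, with both of the ZT8 and ZT20 means above, or both below, both of the ZT4 and ZT16 means). The rises were 1.58% and the falls 1.34% of all genes. The median rise was 0.50 log2 and the median fall -0.40 log2. At least a doubling was seen in 10 rises, and a fall at least as large in 16 genes. In 45 rises and 18 falls no array of ZT8/20 overlapped with any of ZT4/16, which held for 0.725% of all genes tested. The times of a side agreed in direction, without any test, in 43.4% of genes. The adjusted p alone was passed by 382 genes (2.98%), 8 of them without that agreement, and an unadjusted p under 0.05 by 2211 (17.2%).

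The number of called genes depended on single arrays. Leaving out 1 of 12 aged arrays moved it by more than 1.5 times. It was 618 without replicate 1 of ZT12, and it was lower without each of the other 11. Among the ZT8 arrays it was 153, 176 and 127 without replicates 1, 2 and 3. For ZT4 it was 181 and 211 without replicates 1 and 2. Without replicates 1, 2, 3 and 4 of ZT16 it was 227, 229, 198 and 173, and without replicates 1 and 3 of ZT20 it was 234 and 151. Of the 46 called genes named below by rule, all 46 kept their direction in up to 38 alternatives, and 18 kept their call in each of them.

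The largest rises were those of Apol8 and Camk1g. Apol8, an apolipoprotein L family member, ranged from 7.22 to 8.12 at ZT8/20 (median 7.49), against 5.51 to 6.31 at ZT4/16 (median 6.03). Camk1g, a calcium- and calmodulin-dependent kinase, ranged from 7.42 to 8.58 (median 8.24) at ZT8/20, against 6.07 to 7.38 (median 6.68) at ZT4/16. Both genes separated the 16 arrays without overlap. The contrast was 1.59 ± 0.24 log2 for Apol8 and 1.47 ± 0.19 log2 for Camk1g (SE; limma, adjusted p = 0.00144 and 0.000258), or 2.77 times the ZT4/16 level for Camk1g. For Apol8 both differences that make up the contrast were alike, with 1.65 log2 for ZT8 minus ZT4 and 1.52 log2 for ZT20 minus ZT16.

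Ppp1r10 encodes PNUTS, a nuclear subunit that directs protein phosphatase 1 to transcription complexes. In single mice its signal was 9.60, 9.91, 9.69 and 9.27 at ZT8 and 9.32, 9.36, 9.53 and 8.92 at ZT20, against 8.30, 8.27, 8.39 and 8.25 at ZT4 and 8.34, 8.45, 8.51 and 8.55 at ZT16. Every ZT8/20 array lay above every ZT4/16 array. The contrast was 1.07 ± 0.13 log2 (SE, limma, adjusted p = 0.000155), the smallest adjusted p of the named genes, and over 38 alternatives its adjusted p did not exceed 0.000753. The probe set used is of a kind that can bind transcripts of more than 1 gene, and the gene's other probe set gave 1.02 log2.

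Among the other large rises, Nrep (neuronal regeneration related protein) rose by 1.13 ± 0.25 log2, Ddias (a suppressor of apoptosis after DNA damage) by 1.12 ± 0.24 and Lax1 (an adaptor of lymphocyte receptor signalling) by 1.10 ± 0.18. Lonrf3, a RING finger protein with a LON domain, rose by 1.00 ± 0.16, Adam1a, an ADAM family member known from sperm, by 0.96 ± 0.15, and Stk10, a kinase of ezrin-family proteins, by 0.95 ± 0.16. These 6 genes had adjusted p between 0.00144 and 0.0171 and kept their call in each alternative. For Lax1, 6 of 8 arrays of ZT4/16 and none of ZT8/20 lay under the dim limit of log2 3.96, so the size of its rise rests on a low level there. Tktl1 (a transketolase-like protein) rose by 1.13 ± 0.26 log2, Zfp296 (a zinc finger protein) by 1.04 ± 0.25 and Nfkbid (a nuclear inhibitor-like protein of NF-kB) by 0.96 ± 0.26. Their calls were less firm: they were lost in 4, 5 and 19 alternatives, with adjusted p up to 0.0591, 0.0646 and 0.162. For Tktl1 the arrays concerned were replicates 1, 2 and 3 of ZT8 and replicate 3 of ZT20.

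The deepest falls were those of Nppb and Mlf1. Mlf1, myeloid leukemia factor 1, had 5.33, 5.19, 5.29 and 5.67 at ZT8 and 5.34, 5.07, 4.77 and 4.99 at ZT20, against 7.58, 7.33, 7.01 and 6.92 at ZT4 and 7.46, 6.39, 6.96 and 6.31 at ZT16. No array of ZT8/20 reached the lowest of ZT4/16. The contrast was -1.79 ± 0.25 log2 (SE, limma, adjusted p = 0.000588), so the ZT8/20 level was 0.289 times that of ZT4/16. The fall was of similar size in both differences, -1.84 log2 for ZT8 minus ZT4 and -1.74 log2 for ZT20 minus ZT16.

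H1f2, a linker histone, ranged from 7.55 to 9.21 (median 8.83) at ZT8/20, against 9.70 to 10.69 (median 10.30) at ZT4/16, again without overlap. It fell by 1.56 log2 (contrast -1.56 ± 0.31, SE, limma, adjusted p = 0.00882), and its other probe set gave -1.62 log2. Nppb, the precursor of B-type natriuretic peptide, ranged from 5.15 to 7.07 (median 5.82) at ZT8/20, against 6.30 to 9.15 (median 7.82) at ZT4/16. The spread among mice was wide and the sides overlapped, and the contrast was -1.82 ± 0.44 log2 (adjusted p = 0.0274), a call lost in 8 of 38 alternatives. Alox12b, a lipoxygenase needed for the epidermal barrier, lay between 4.96 and 5.35 at ZT8/20, against 5.32 to 7.14 at ZT4/16, with a contrast of -1.18 ± 0.19 log2 (adjusted p = 0.00179).

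Other large falls were seen for Zc3h12c (an RNase family member, -1.46 ± 0.30 log2), Spock2 (a proteoglycan of the extracellular matrix, -1.29 ± 0.27), Adh1 (an alcohol dehydrogenase that also oxidises retinol, -1.23 ± 0.24) and Slc43a1 (an amino acid transporter, -1.22 ± 0.30). Hpgd, which inactivates prostaglandins, fell with a contrast of -1.19 ± 0.29 log2 and Il22ra2, a soluble receptor that binds interleukin 22, with -1.16 ± 0.26. Adjusted p for these 6 genes lay between 0.00764 and 0.0307. Spock2 and Adh1 kept their call in each alternative, Zc3h12c lost it with cell mixture scores in the fit (adjusted p = 0.0538), and Slc43a1, Hpgd and Il22ra2 lost it in 9, 7 and 3 alternatives. Il22ra2 differed mostly between the earlier times, with -2.00 log2 for ZT8 minus ZT4 and -0.32 log2 for ZT20 minus ZT16.

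**Figure D1:**
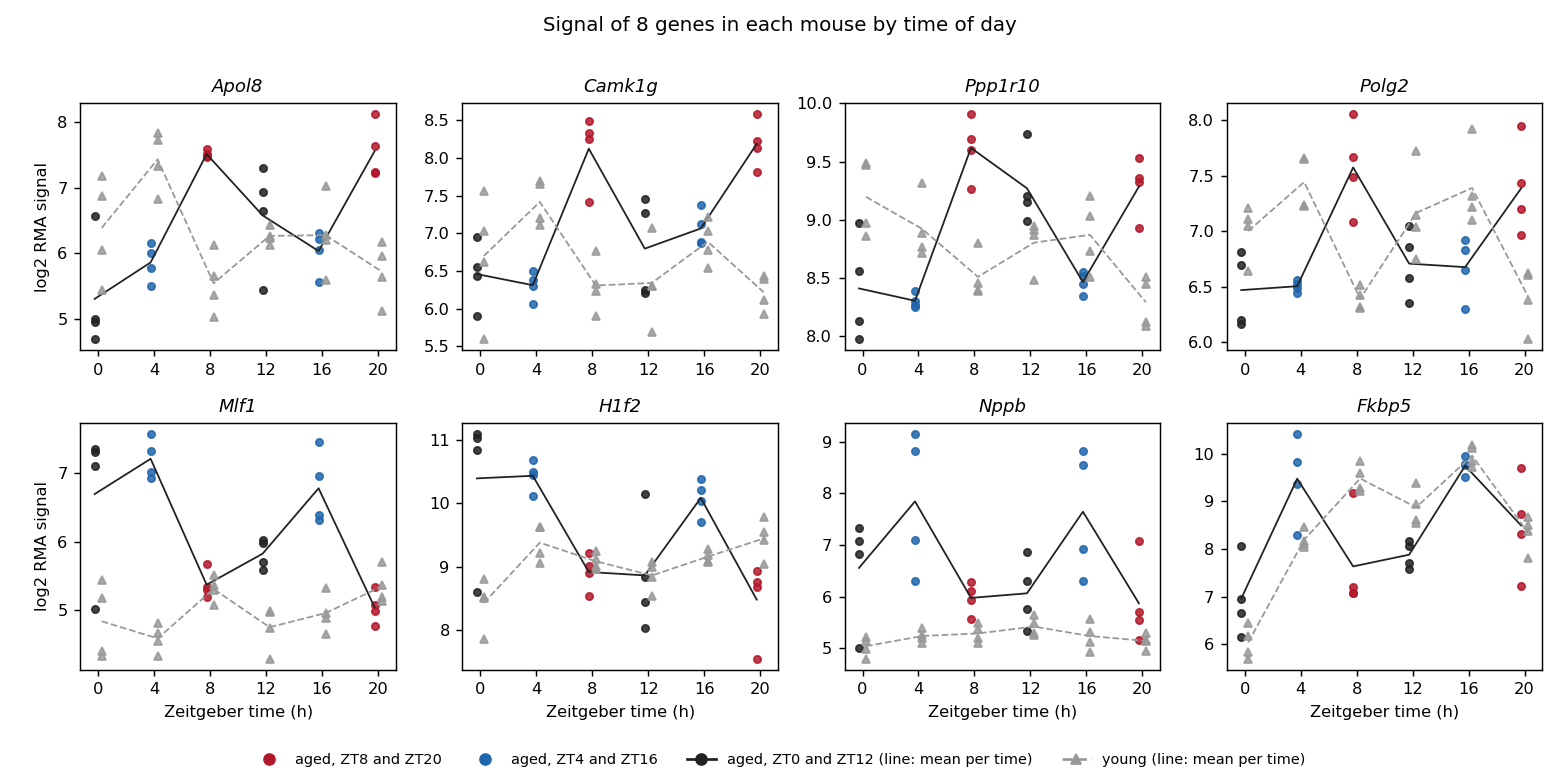
Each panel plots the log2 RMA signal of a gene in each mouse against zeitgeber time in hours, with red circles for aged ZT8 and ZT20, blue circles for aged ZT4 and ZT16, black circles for aged ZT0 and ZT12 and grey triangles for young mice; lines join the means of 4 mice. In aged mice Apol8, Camk1g, Ppp1r10 and Polg2 are high at both ZT8 and ZT20, and Mlf1 and H1f2 are low at both, without overlap with ZT4 and ZT16, whereas Nppb and Fkbp5 overlap.

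The pattern was not equally strong in the 2 differences that make up the contrast. Taken alone, ZT8 minus ZT4 called 407 genes, which is 3.17% of those tested (209 higher and 198 lower), and ZT20 minus ZT16 called 2, or 0.0156% (limma, adjusted p under 0.05). At an unadjusted p under 0.05 the second difference held 634 genes, or 4.94%. The 2 genes called were Alox12b (-1.53 log2) and the clock gene Nr1d2 (-0.93 log2). Without single arrays the count of 2 ran from 0 to 4: it was 0 without replicate 1, 3 or 4 of ZT16 or replicate 1, 2 or 3 of ZT20, and 4 without replicate 4 of ZT0. The 2 differences share no array. Of the 407 genes, 348 (85.5%) had the same sign in ZT20 minus ZT16, against 62% of all genes tested. An unadjusted p under 0.05 with the same sign was reached by 93 of them (22.9%), against 3.95% of all genes. The median ratio of the second difference to the first was 0.29. The count of 407 was 746 without replicate 1 of ZT12 and 697 without replicate 4 of ZT8, and it was 76, 106 and 124 without replicates 3, 1 and 2 of ZT8. Without replicates 1, 2 and 3 of ZT4 it was 134, 197 and 156.

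Among the 374 called genes, the median size of the difference was 0.56 log2 for ZT8 minus ZT4 and 0.33 log2 for ZT20 minus ZT16, and it was larger in the first for 326. The call on the contrast used both differences, so their shared sign in these genes is no separate evidence. No gene passed when all 4 pairwise differences between the sides had to pass (limma, adjusted p), while 156 (1.22%) did so at an unadjusted p under 0.05. A test of whether the times of a side differed called 69 genes (0.538%; 9.86% at an unadjusted p under 0.05), of which 2 were among the 374; the 69 became 39 and 42 without replicates 2 and 3 of ZT16 and 45 without replicate 2 or 3 of ZT4. The 2 genes were Mcrs1, a nuclear protein of chromatin complexes, with -0.59 and -0.13 log2 for the first and second difference, and Tbcc, a tubulin folding cofactor, with -0.59 and -0.13 log2 (named here after their values were seen).

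**Figure D2:**
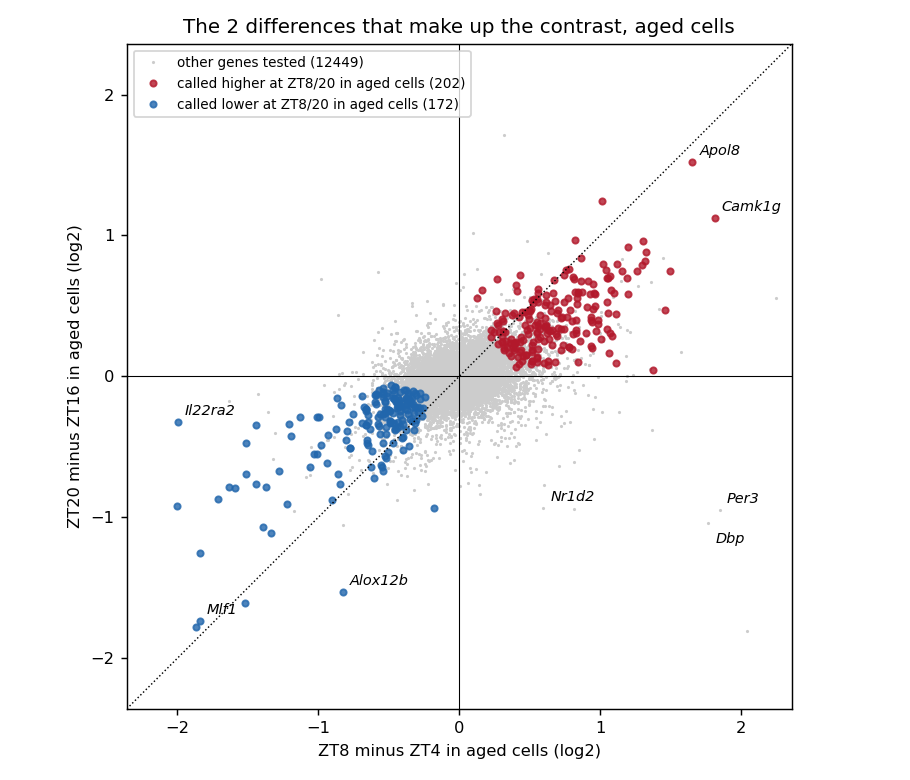
Each point is a gene, with ZT8 minus ZT4 (log2) on the horizontal and ZT20 minus ZT16 (log2) on the vertical axis, both in aged cells; red and blue mark the 202 rises and 172 falls, grey the other genes, and the dotted line equal differences. ZT8 minus ZT4 is the larger for 326 of 374 called genes, and the clock genes Dbp, Per3 and Nr1d2 lie in the lower right, where the differences have opposite signs.

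Genes whose 2 differences were most alike in size were named by rule. Hap1, a huntingtin-associated protein of vesicle transport, had 0.76 log2 for ZT8 minus ZT4 and 0.75 log2 for ZT20 minus ZT16 (contrast 0.75 ± 0.13, limma, adjusted p = 0.00432). It ranged from 5.08 to 5.94 at ZT8/20, against 4.55 to 4.89 at ZT4/16. Glis2, a zinc finger transcription factor, had a contrast of 0.77 ± 0.14 log2, and Car15, a carbonic anhydrase, one of 0.55 ± 0.10. Plcg1, a phospholipase C of growth factor receptor signalling, had 0.54 ± 0.10 and Zfp319, a zinc finger protein, 0.52 ± 0.14, a call lost in 19 of 38 alternatives. Another probe set of Plcg1 gave -0.12 log2, and the call of Plcg1 was lost with the mean of its probe sets. The weaker probe set of Glis2 gave 0.09 log2, and those of Zfp319 gave -0.03 and 0.18 log2.

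The 2 times left out of the contrast, ZT0 and ZT12, fell between the sides in most called genes: their joint mean lay between in 167 of 202 rises and 119 of 172 falls. ZT12 was nearer to ZT8/20 than to ZT4/16 in 141 rises and 132 falls, and ZT0 in 54 rises and 91 falls. H1f2 had 10.14, 8.44, 8.83 and 8.04 at ZT12 and 10.83, 11.09, 11.03 and 8.61 at ZT0, with 1 mouse far from the other 3 at each time. Fitting a 12 h cosine and sine to all 6 times called 676 genes (5.27%, limma F test, adjusted p under 0.05), among them 319 of the 374. The contrast is the sine part of this fit, on the same arrays, so the 319 are no separate evidence. The fitted peaks of the 676 were nearest ZT0/12 in 225, ZT4/16 in 251 and ZT8/20 in 200 genes, with a median amplitude of 0.28 log2. The 676 genes became 385, 428 and 443 without replicates 3, 1 and 2 of ZT8, 382 and 429 without replicates 1 and 2 of ZT4, and 401 and 432 without replicates 3 and 4 of ZT16.

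Among glucocorticoid-induced genes, which the hormone-bound receptor switches on, Fkbp5, Tsc22d3, Zbtb16 and Cebpd fell. Of 20 members tested, 4 fell and none rose, against 1.34% of all genes that fell; 13 had all 4 time differences below 0 without regard to a test, as did 3170 of all 12823 genes. The median contrast of the list was -0.21 log2, against -0.02 log2 over all genes. Fkbp5, which binds the glucocorticoid receptor with HSP90, had 7.21, 7.07, 7.07 and 9.18 at ZT8 and 8.74, 9.70, 8.31 and 7.22 at ZT20, against 10.42, 9.82, 9.36 and 8.30 at ZT4 and 9.51, 9.76, 9.95 and 9.77 at ZT16. Replicate 4 stood far above the others at ZT8 and lowest at ZT4, and the sides overlapped. The contrast was -1.55 ± 0.35 log2 (SE, limma, adjusted p = 0.0207), with -1.58 log2 in a second bright probe set, and the call was lost without replicate 1 or replicate 3 of ZT8 (adjusted p up to 0.0569).

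Tsc22d3, the anti-inflammatory leucine zipper protein GILZ, fell with a contrast of -1.21 ± 0.33 log2, Zbtb16, the transcription factor PLZF, with -0.85 ± 0.23, and Cebpd, a bZIP transcription factor, with -0.64 ± 0.15 (limma, adjusted p = 0.0436, 0.0419 and 0.0276). Their calls were lost in 21, 17 and 7 of 38 alternatives. Members that did not pass, named after their values were seen, included Klf9 (-0.28 log2, adjusted p = 0.0717), Mt1 (-0.27, 0.0602), Lcn2 (-0.86, 0.0878) and Pdk4 (-0.78, 0.161). They were called in 6, 10, 3 and 1 of the alternatives. The number of falls in the list was 0 without replicate 1 or replicate 3 of ZT8 and 7 without replicate 4 of ZT8 or of ZT0. It was 1 without replicate 2 of ZT8, replicate 1 or 3 of ZT20, replicate 1 of ZT4 or replicate 1 of ZT16, and 2 without replicates 2, 3 or 4 of ZT16, replicate 2 of ZT4 or replicate 4 of ZT20. With the replicate number as a block it was 2.

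The promoter of Fkbp5 is shown because this gene fell most in the list, and those of Mlf1 and Ppp1r10 because they had the smallest adjusted p among the falls and rises named. Each runs from 250 bases before to 50 after a RefSeq gene start, 5′ to 3′ on the gene's strand, in build GRCm38.p6. Capitals mark an E-box (CACGTG) in Fkbp5 at chr17:28486100-28486399 on the minus strand, a CRE (TGACGTCA) in Mlf1 at chr3:67373847-67374146 on the plus strand and a CARE (TGATGNAAT) in Ppp1r10 at chr17:35919022-35919321 on the plus strand, 1 of 2 windows of that gene.
Fkbp5: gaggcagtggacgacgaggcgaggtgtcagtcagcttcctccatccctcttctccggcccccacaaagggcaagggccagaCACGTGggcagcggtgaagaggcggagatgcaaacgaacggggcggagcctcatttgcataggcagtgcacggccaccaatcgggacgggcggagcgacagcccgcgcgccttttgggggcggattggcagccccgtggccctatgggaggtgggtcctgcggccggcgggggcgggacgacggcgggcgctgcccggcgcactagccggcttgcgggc
Mlf1: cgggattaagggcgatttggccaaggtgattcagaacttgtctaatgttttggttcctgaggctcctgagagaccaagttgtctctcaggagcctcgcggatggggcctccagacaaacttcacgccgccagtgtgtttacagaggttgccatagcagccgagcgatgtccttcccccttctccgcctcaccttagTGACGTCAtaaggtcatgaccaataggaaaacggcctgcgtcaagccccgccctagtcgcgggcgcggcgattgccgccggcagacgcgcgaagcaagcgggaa
Ppp1r10: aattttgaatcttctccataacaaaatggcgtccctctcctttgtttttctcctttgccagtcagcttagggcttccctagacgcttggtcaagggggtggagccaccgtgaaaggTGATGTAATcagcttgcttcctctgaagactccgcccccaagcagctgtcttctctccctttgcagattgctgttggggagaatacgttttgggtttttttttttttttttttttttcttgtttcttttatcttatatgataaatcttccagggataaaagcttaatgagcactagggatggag

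These letters were searched on both strands in the windows of all genes that have one in the table, 174 of the rises, 142 of the falls and 10302 of all genes. The E-box, which the clock's activators bind, stood in 10.9% of rises, 14.1% of falls and 11.3% of all genes. The CRE, bound by CREB family factors, stood in 4.02% of rises, 5.63% of falls and 3.37% of all genes. The CARE of ATF4 stood in 0.575%, 0.704% and 0.641%, and the D-box (TTATGTAA) in 0.575% of rises, no fall and 0.602% of all genes. The palindromic glucocorticoid response element was in no window of a called gene and in 0.0194% of all, and the ERSE and the heat shock element were in no called gene and in 0.175% and 0.563% of all. A match describes letters in a window and not a bound site.

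The lists of FoxO targets, immediate early genes and p53 targets held 2, 1 and 1 falls, against 1.34% of all genes that fell. None was called among MAPK feedback genes and EGFR ligands, Notch, Wnt or TGF-beta and BMP targets (15, 15, 18 and 16 tested). Of 19 tested FoxO and fuel-switch genes, 2 fell: Txnip, an inhibitor of thioredoxin and glucose uptake, with -0.81 ± 0.18 log2 (limma, adjusted p = 0.0185), and its relative Arrdc4, with -0.51 ± 0.14 (adjusted p = 0.0429). Arrdc4 lost its call in 21 of 38 alternatives and its second probe set gave -0.08 log2; Txnip lost its call without replicate 3 of ZT8 (adjusted p = 0.0543). Klf2, a Krueppel-like factor counted among immediate early genes, ranged from 7.81 to 8.61 at ZT8/20, against 8.81 to 9.81 at ZT4/16, with no overlap. Its contrast was -1.10 ± 0.26 log2 (adjusted p = 0.0254), 1 fall in 22 tested members, and 5 alternatives took it past the threshold (adjusted p up to 0.0692), among them the fits without replicate 1 or 3 of ZT8, replicate 1 of ZT16 and replicate 3 of ZT20. Trp53inp1, which p53 induces under stress, ranged from 9.33 to 10.72 at ZT8/20, against 10.60 to 11.18 at ZT4/16. Its contrast was -1.08 ± 0.18 log2 (adjusted p = 0.00252), and it was the only call among 18 p53 targets.

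Genes of protein folding and secretion, for which 12 h rhythms are known in the liver, had 3 calls in 4 lists. The lists held 21, 22, 18 and 15 tested genes, the calls went in both directions, and 2.92% of all genes were called. At an unadjusted p under 0.05 (limma), the lists of the unfolded protein response, ER to Golgi transport, integrated stress response and heat shock chaperones held 4, 4, 5 and 8 genes, against 17.2% of all genes. Of the 15 heat shock chaperones, 8 were higher and 4 lower with the times of a side in agreement, without a test, against 43.4% of all genes in either direction. Of 21 genes of the unfolded protein response 1 fell and none rose. That gene was Herpud1, a part of the ER degradation machinery, which ranged from 9.69 to 10.28 at ZT8/20, against 10.29 to 10.47 at ZT4/16 (contrast -0.51 ± 0.09 log2, limma, adjusted p = 0.00438). The chaperones Hspa5 (0.25 log2, adjusted p = 0.269) and Dnajb9 (0.50, 0.112), named after their values were seen, did not pass, and the list's median was 0.07 log2. Of 22 ER to Golgi transport genes none was called, with a median of -0.06 log2. Atf5, a transcription factor of the integrated stress response, rose by 0.49 ± 0.13 log2 (adjusted p = 0.0377), 1 of 18 members. Hspa1b, an inducible heat shock protein, rose by 0.35 ± 0.07 log2 (adjusted p = 0.0128), 1 of 15 members; Hspa1a is a near-identical copy, and the signals of the pair may not be separate.

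Of 28 genes of S phase and replication 2 rose and none fell, against 1.58% of all genes that rose. The median of the list was 0.15 log2 in aged cells and 0.19 log2 in young cells. Slbp, which binds the stem-loop of histone messages, ranged from 8.95 to 9.49 at ZT8/20, against 7.95 to 8.88 at ZT4/16. Its contrast was 0.61 ± 0.12 log2 (limma, adjusted p = 0.0086), the average of 1.06 log2 for ZT8 minus ZT4 and 0.16 log2 for ZT20 minus ZT16. The call of Slbp was lost with the mean of its probe sets (adjusted p = 0.164). Cdc6, a loader of the replicative helicase, rose by 0.50 ± 0.14 log2 (adjusted p = 0.046) and lost its call in 24 of 37 alternatives. None of 23 genes of G2 and mitosis was called, and their median was 0.20 log2 in aged cells and 0.25 log2 in young cells. Ncl, the nucleolar protein nucleolin, rose by 0.71 ± 0.18 log2 (adjusted p = 0.0384) without overlap of the sides, 1 of 19 ribosome biogenesis genes. Vegfa, the vascular growth factor, rose by 0.37 ± 0.10 log2 (adjusted p = 0.0384), 1 of 17 hypoxia targets. The calls of Ncl, Vegfa and Atf5 were lost in 12, 17 and 13 alternatives.

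None of 24 oxidative phosphorylation genes was called; 11 had all 4 time differences below 0, as did 3170 of all 12823 genes, and the median was -0.09 log2 in aged cells and 0.02 log2 in young cells. Outside the lists, 6 further falls were picked after their values were seen and stand for no list. Of these, Iscu (-0.24 ± 0.06 log2), Isca1 (-0.28 ± 0.07) and Bola3 (-0.33 ± 0.09) act in iron-sulphur cluster biogenesis, and Fdx1 (-0.33 ± 0.08) is a ferredoxin. Adjusted p for these 4 genes lay between 0.0258 and 0.0395 (limma). Other genes of iron-sulphur clusters were not counted, so no share can be set against the 1.34% of all genes that fell. Ndufa10, a subunit of complex I, had -0.22 ± 0.06 log2 and Mrps10, of the mitochondrial ribosome, -0.22 ± 0.06. Their calls were lost in 7 to 27 of 38 alternatives. For all 6 the difference was larger in ZT8 minus ZT4 than in ZT20 minus ZT16.

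The next 6 rises were picked after their values were seen and stand for no list. Hexim1 and Mepce, which hold the elongation factor P-TEFb inactive in the 7SK particle, rose by 0.67 ± 0.18 and 0.68 ± 0.13 log2 (limma, adjusted p = 0.0436 and 0.00845). Mepce ranged from 8.54 to 9.22 at ZT8/20, against 8.09 to 8.58 at ZT4/16, and the sides overlapped through 1 low array of ZT20 and 1 high array of ZT16. Sfpq, a splicing and paraspeckle protein, rose by 0.46 ± 0.08 log2 (adjusted p = 0.00323), and Srsf6, a serine- and arginine-rich splicing factor, by 0.42 ± 0.11 (adjusted p = 0.0359). The long non-coding RNA Malat1 rose by 0.26 ± 0.06 log2 (adjusted p = 0.031). Kcnq1ot1, the imprinted antisense RNA of the Kcnq1 locus, rose by 0.90 ± 0.20 log2 (adjusted p = 0.0177); whether its probes also bind the partner gene was not tested. Calls were lost in 19 alternatives for Hexim1, 15 for Srsf6 and 13 for Malat1, and in 1 each for Mepce and Kcnq1ot1 (cell mixture scores in the fit, adjusted p = 0.0527 and 0.0858) and Sfpq (a rule of at least 1.5-fold).

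Likewise picked afterwards, Rdh10, which oxidises retinol to retinal, rose by 0.75 ± 0.20 log2 (limma, adjusted p = 0.0386), and Adh7, an alcohol dehydrogenase, fell with -0.51 ± 0.12 (adjusted p = 0.0314), in the same direction as Adh1. The calls of Rdh10 and Adh7 were lost in 14 and 11 of 38 alternatives.

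Markers of single cell types were called in 3 cases, each the only call in its list. These lists held 12 suprabasal, 9 T cell and 8 myeloid markers tested, and 2.92% of all genes were called. Tgm3, a transglutaminase of differentiating keratinocytes, fell with -0.78 ± 0.19 log2 (limma, adjusted p = 0.0334), 1 of 12 suprabasal markers tested; the summed level of 13 with a probe set was 13.37 to 13.57 at ZT8/20 and 13.25 to 13.82 at ZT4/16, and Flg was dim. Cd3e, of the T cell receptor complex, ranged from 3.76 to 4.30 at ZT8/20 and 4.12 to 6.28 at ZT4/16 (contrast -0.77 ± 0.19, limma, adjusted p = 0.0331), with 3 arrays of ZT8/20 under the dim limit. The sum of 9 T cell markers was 10.0 to 10.57 at ZT8/20 and 9.66 to 10.88 at ZT4/16. All such sums add linear signals, so the brightest members weigh most. For T cells these were Thy1 (9.74 log2 in aged cells, also in the fibroblast list) and Cd247 (7.44). The others averaged 4.17 to 4.83, so the T cell sum says little about Cd3e. Cd68, a lysosomal protein of macrophages, rose by 0.45 ± 0.11 log2 (adjusted p = 0.0344); the sum of 12 myeloid markers was 9.02 to 10.18 at ZT8/20 and 9.16 to 10.71 at ZT4/16, with Cd207, Ptprc, Lyz2 and Tyrobp dim. Red blood cell markers had the widest gap, 7.33 to 7.84 at ZT8/20 and 7.70 to 8.92 at ZT4/16, with no member called. Each of Tgm3, Cd3e and Cd68 lost its call in 12 alternatives. With scores of 5 cell type lists in the fit, 163 genes were called, of which 141 were among the 374; what part cell mixture has in the contrast was not tested further.

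**Figure D3:**
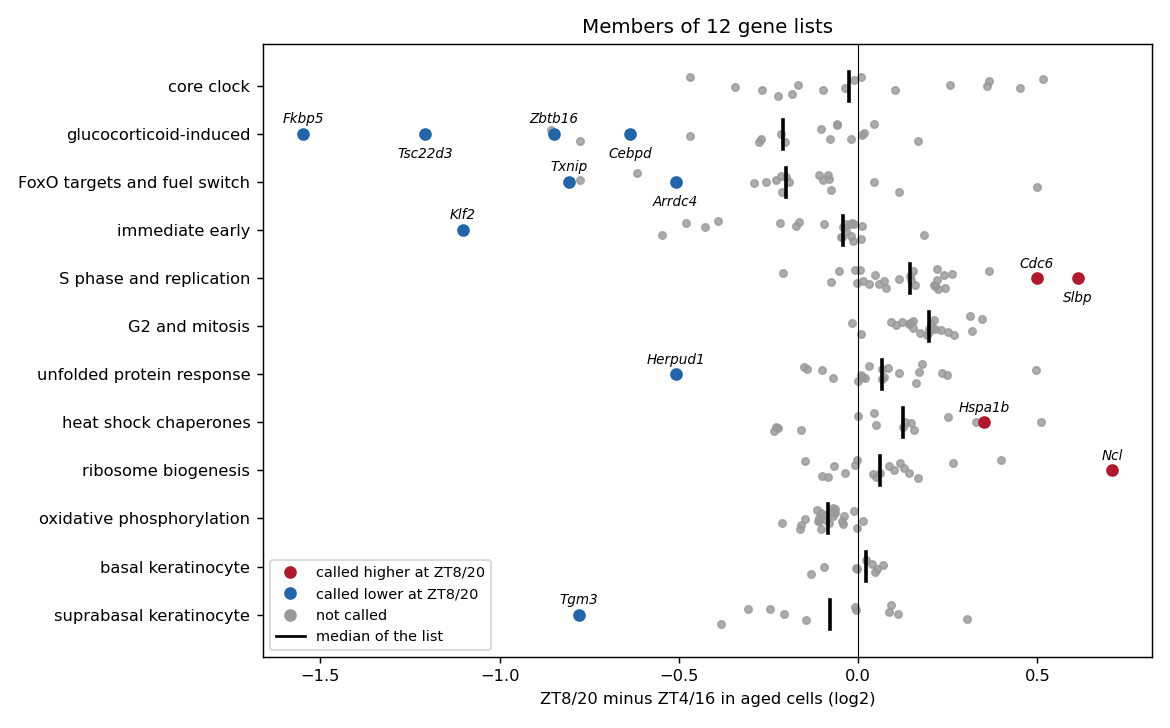
Each point is a tested member of 1 of 12 gene lists, placed by its contrast (ZT8/20 minus ZT4/16 in aged cells, log2); red and blue points are called genes, grey points are not called, and black bars are list medians. The glucocorticoid list holds 4 falls (Fkbp5, Tsc22d3, Zbtb16 and Cebpd, median -0.21), while G2 and mitosis, with a median of 0.20, has no call.

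None of 16 measured core clock genes was called. In Dbp, Per3, Tef and Nr1d2 the 2 differences had opposite signs. ZT8 minus ZT4 passed for all 4 (limma, adjusted p = 0.00185, 0.00736, 0.00741 and 0.025), and ZT20 minus ZT16 passed for Nr1d2 (adjusted p = 0.0152). Dbp, a bZIP factor driven directly by the clock, had 1.77 log2 for ZT8 minus ZT4 and -1.04 log2 for ZT20 minus ZT16, which left a contrast of 0.36 ± 0.18 log2 (limma, adjusted p = 0.32). Per3, Tef and Nr1d2 had contrasts of 0.45 ± 0.24, 0.26 ± 0.13 and -0.17 ± 0.10 log2 (adjusted p = 0.344, 0.302 and 0.421). The clock genes nearest to the threshold were Per1 (-0.47 ± 0.14 log2, adjusted p = 0.0685) and Cry1 (0.51 ± 0.17, adjusted p = 0.0931), whose 2 differences had the same sign. Per1 was called in 8 of 38 alternatives, with adjusted p down to 0.00447, among them the fits without replicate 4 of ZT0, replicate 1 of ZT12 or replicate 4 of ZT8 (0.0192, 0.0476 and 0.0237). Bhlhe40 was called in 4, among them the fit without replicate 4 of ZT0 (0.0192). The adjusted p of Cry1 passed in 4 and that of Arntl in 1, but their times did not agree, so neither was called. Arntl (which encodes BMAL1), Bhlhe40, Ciart, Clock, Cry2, Hlf, Nfil3, Npas2, Per2 and Rora had contrasts between -0.34 and 0.36 log2, with adjusted p of 0.107 and above. Other probe sets of Rora gave -0.47 (unadjusted p = 8.95e-05), -0.29 and -0.04 log2; these were not part of the adjusted test. Of these 10, Clock, Cry2, Nfil3 and Ciart also changed sign under some of the alternatives.

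**Figure D4:**
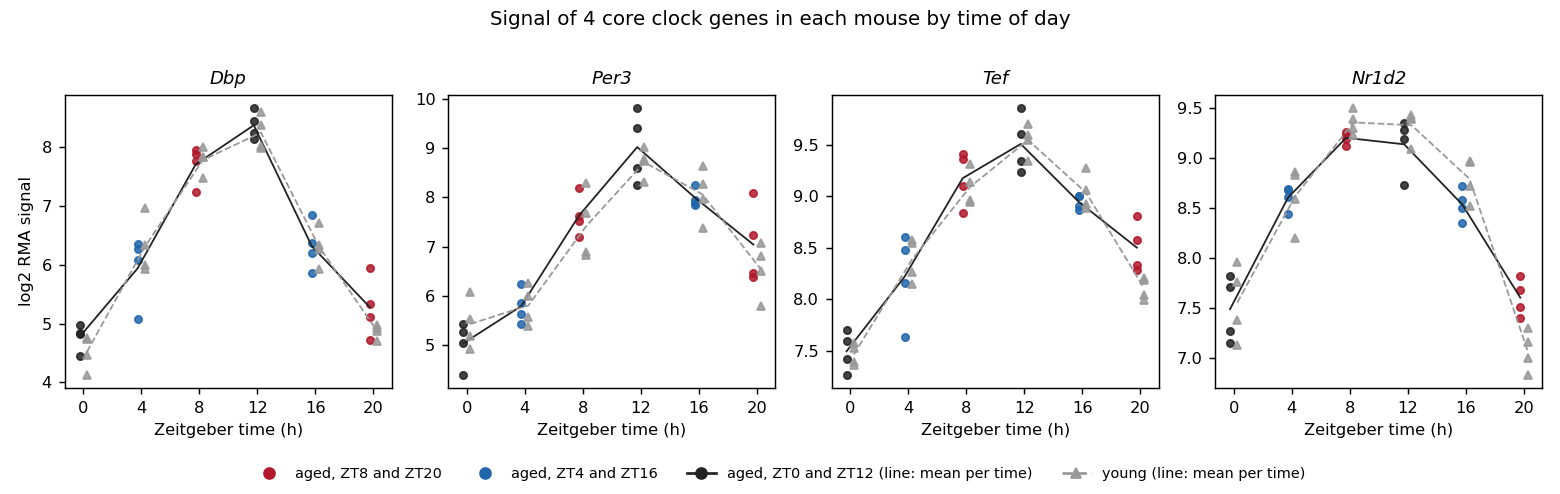
The log2 RMA signal of Dbp, Per3, Tef and Nr1d2 in each mouse is plotted against zeitgeber time in hours, with red circles for aged ZT8 and ZT20, blue for aged ZT4 and ZT16, black for aged ZT0 and ZT12, grey triangles for young mice and lines through the means of 4 mice. Each gene is higher at ZT8 than at ZT4 and lower at ZT20 than at ZT16, for Dbp by 1.77 and -1.04 log2.

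In young cells the same contrast called 587 genes (4.58% of those tested, limma fit of all 48 arrays, adjusted p under 0.05). Unlike aged calls, these and the young calls named below did not require that both times of a side agree. Fitted alone and with the rule on agreement used for aged cells, young cells gave 92 rises and 408 falls. The difference between the ages was tested directly and called 258 genes (2.01%), and at an unadjusted p under 0.05 it held 1717 (13.4%). In 235 of the 258 the aged and young contrasts had opposite signs. The 258 were chosen for the size of this difference, which favours opposite signs, so the 235 are a description. Both contrasts were called, in opposite directions, in 14 of the 258, and neither was called in 61. The aged contrast was the higher in 197 genes and the lower in 61. Of the 374 genes called in aged cells, 96 rises and 28 falls were among the 258; since these genes were chosen for their aged contrast, which is part of the difference, the counts are a description. The 96 became 50 to 61 without replicate 1, 2 or 3 of ZT8, replicate 1 of ZT4, replicate 1 or 4 of ZT16 or replicate 2 or 3 of ZT20. The 28 became 12 to 18 without replicate 1, 2 or 3 of ZT8, replicate 1 or 2 of ZT4, replicate 2, 3 or 4 of ZT16 or replicate 2 or 3 of ZT20, and 46 and 45 without replicate 1 of ZT12 and replicate 4 of ZT0.

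In young cells the rises and falls of aged cells had the following signs. Of the 202 rises, 84 (41.6%) were also positive in young cells, close to the 42.1% of all genes, and the median young contrast was -0.04 log2. Of the 172 falls, 131 (76.2%) were also negative in young cells, against 57.9% of all genes, with a median of -0.11 log2. Over all genes tested, 4.58% were called in young cells, and the fit of young cells alone gave 92 rises and 408 falls. Of the aged falls, 33 were called in young cells in the same direction and none in the opposite one. Of the aged rises, 3 were called in the same direction and 14 in the opposite one, and most young calls were falls. The 3 were Ccdc88c (0.49 log2 in aged and 0.50 log2 in young cells), Flrt2 (0.42 and 0.37) and Rhbdl3 (0.60 and 0.52), named after their values were seen; Ccdc88c is a Girdin family member, Flrt2 a cell surface protein of adhesion and guidance, and Rhbdl3 a rhomboid-like protein. Whether rises and falls differ in this respect was not tested.

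The genes with the smallest p of the difference were high at ZT8/20 in aged cells and at ZT4/16 in young cells, apart from Mlf1. Polg2, the accessory subunit of the mitochondrial DNA polymerase, had 7.49, 8.05, 7.67 and 7.08 at ZT8 and 7.20, 7.95, 6.96 and 7.44 at ZT20 in aged mice, against 6.56, 6.49, 6.52 and 6.44 at ZT4 and 6.30, 6.65, 6.83 and 6.92 at ZT16. In young mice it averaged 6.40 ± 0.19 at ZT8/20 and 7.42 ± 0.29 at ZT4/16 (SD, n = 8 each). Its contrast was 0.89 ± 0.15 log2 in aged and -1.02 ± 0.15 log2 in young cells, a difference of 1.91 ± 0.21 (limma, adjusted p = 1.73e-07). In both ages no array of one side overlapped with the other.

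Apol8 had 1.59 log2 in aged and -1.22 ± 0.25 log2 in young cells, a difference of 2.81 ± 0.35 (limma, adjusted p = 2.62e-06). Camk1g had 1.47 and -0.89 ± 0.21 log2 in aged and young cells, a difference of 2.36 ± 0.30 (adjusted p = 2.62e-06), and Ppp1r10 had 1.07 and -0.50 ± 0.13 log2, a difference of 1.57 ± 0.18 (adjusted p = 6.3e-07). For each the young contrast was itself called on the adjusted p alone (limma, adjusted p = 0.00168, 0.00775 and 0.0161), in the opposite direction, as it was for Polg2, Car15 and Cd68. In young mice Apol8 stood at 7.33, 7.84, 6.82 and 7.73 at ZT4 and at 5.59, 6.28, 7.03 and 6.20 at ZT16. Mlf1 had -1.79 log2 in aged cells and 0.56 ± 0.21 log2 in young cells (adjusted p = 0.134 for the young contrast), a difference of -2.35 ± 0.30 (adjusted p = 2.69e-06).

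Falls that were shared between the ages included Spock2, with -1.29 log2 in aged and -0.98 ± 0.22 log2 in young cells (adjusted p = 0.0042 for the young contrast), and Slc43a1, with -1.22 and -0.99 ± 0.24 log2 (adjusted p = 0.00891). Tgm3, Txnip, Herpud1 and Il22ra2 were also called lower in young cells, at -0.90, -0.54, -0.31 and -0.71 log2. The difference between the ages was -0.31 ± 0.31 log2 for Spock2 and -0.23 ± 0.34 log2 for Slc43a1 (adjusted p = 0.752 and 0.85), so it was not resolved at this number of mice. Of the glucocorticoid list, Fkbp5 had -0.17 ± 0.28 log2 in young cells, and its difference of -1.38 ± 0.39 log2 did not pass (adjusted p = 0.0516). Nppb lay between 4.80 and 5.65 log2 in all 24 young mice, with a contrast of -0.02 ± 0.33 log2, and the difference of -1.80 ± 0.46 log2 passed (adjusted p = 0.0286).

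**Figure D5:**
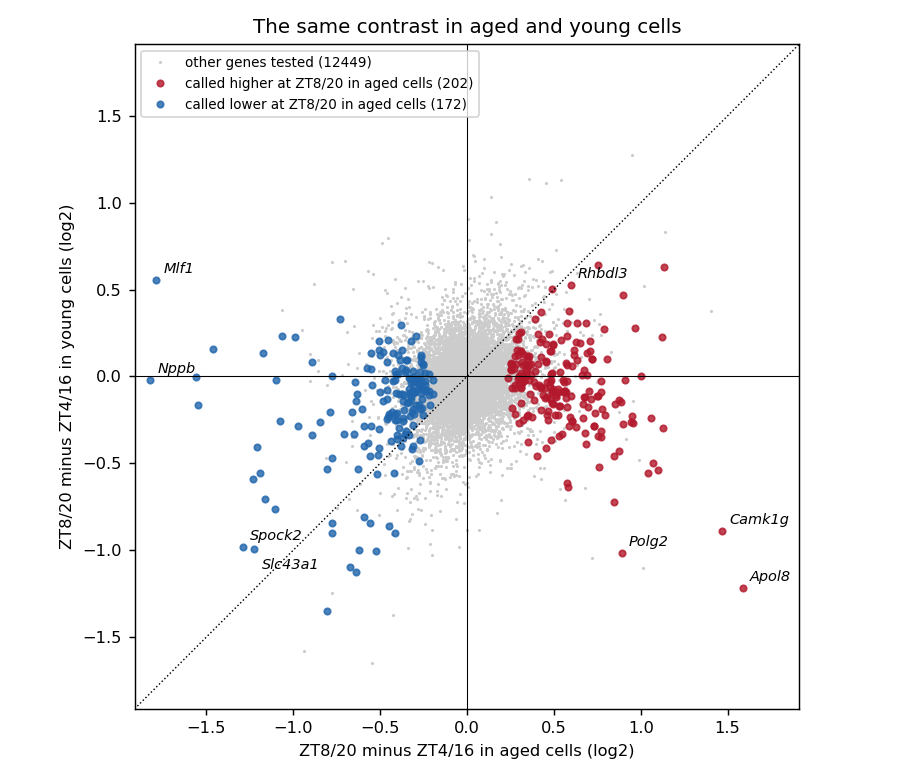
Each point is a gene, with the contrast (ZT8/20 minus ZT4/16, log2) of aged cells on the horizontal and of young cells on the vertical axis; red and blue mark the 202 rises and 172 falls of aged cells, grey the other genes, and the dotted line equal contrasts. The falls spread downwards, with 131 of 172 below 0 in young cells, while the rises lie on both sides of 0, with Apol8, Camk1g and Polg2 far below it.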

How the data were processed

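RNA of epidermal stem cells from 48 mice was measured on 1-colour Affymetrix arrays. Per the labels' protocols, RNA was extracted with TRizol and amplified from 25 ng in 17 cycles. The deposited values are log2 signals that the authors made with RMA, per the submitters' processing notes (no version is given in the sources used). The value of a gene is that of its probe set with the highest mean over 48 arrays; probe sets with 1 gene symbol (28898 of 45141) gave 17097 genes, and the lowest 25% of gene means (under log2 3.96) were left out, which left 12823.

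With limma 3.58.1 in R 4.3.3, a mean per time was fitted to the 24 aged arrays, and the contrast (ZT8 + ZT20)/2 minus (ZT4 + ZT16)/2 was tested with Benjamini-Hochberg adjustment over all 12823 genes. A gene was called at an adjusted p under 0.05 where both times of each side agreed. Ages were compared in a fit of all 48 arrays, in which young contrasts and age differences were called on the adjusted p alone. Genes were named by rule: the 12 largest rises and 12 largest falls, the 5 with the smallest p of the difference between the ages, the 5 called genes with a contrast of at least 0.5 log2 whose 2 differences were most alike, up to 3 called members per list, and all measured clock genes, with predicted and clone names passed over; others are said to be named afterwards. Members and lists were chosen with earlier results of these data known. On simulated data for this contrast with 12823 genes, 82 of 100 genes changed by 0.5 log2 and 99 of 100 changed by 1 log2 were found. There, 13 unchanged genes and 0 of 200 genes with a 24 h cosine were called. A 24 h cosine cancels in the contrast, so the 0 of 200 cannot show how other 24 h rhythms would fare. The simulation drew normal noise independently for each gene and array and changed ZT8 and ZT20 alike. In the real data single mice stood apart and the 2 differences were unequal, so the simulated rates need not hold for them.

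Deviations of same-numbered arrays at different times correlated by 0.0068 on average (lowest -0.29), against -0.0027 for different numbers. In 9 of 24 arrays the best correlation was with an array of their own number. These values show no clear pairing by number but cannot exclude shared litters or days. Nothing in the labels ties replicates to litters or days, so p-values measure the spread between these mice, and 4 mice per time limit the precision. Alternatives covered filters, scaling, probe set choice, array weights, cell mixture scores, the replicate block and each array left out. Promoters are from RefSeq.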

Additional observations from a re-analysis of the deposited data

Results flagged for a closer look

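The difference between the ages in the ZT8/20 minus ZT4/16 contrast passed for 258 genes (limma, adjusted p under 0.05). Among the genes named in the report, the aged contrast minus the young contrast was above 0 for Polg2 (1.91 log2), Ppp1r10 (1.57), Apol8 (2.81), Camk1g (2.36), Lax1 (1.64), Car15 (0.88), Hap1 (1.10), Zfp296 (1.60), Adam1a (1.22), Cd68 (0.86), Stk10 (1.18), Mepce (0.80), Glis2 (0.80), Hexim1 (0.91), Tktl1 (1.42), Zfp319 (0.75), Srsf6 (0.62), Lonrf3 (1.00) and Rdh10 (0.86). It was below 0 for Mlf1 (-2.35 log2), Alox12b (-1.31), H1f2 (-1.56), Zc3h12c (-1.62), Nppb (-1.80), Trp53inp1 (-0.82), Klf2 (-1.08), Arrdc4 (-0.71) and Cd3e (-0.77). Most of these genes were named for their aged contrast, which is part of the difference.

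In 26 of 376 groups of 4 aged mice, 1 array stood apart by Dixon's ratio, the gap to its nearest neighbour divided by the range. Chance gives about 1 in 20 such groups. These groups are those of ZT4, ZT8, ZT16 and ZT20; ZT0 and ZT12, which enter the fit's spread, were not screened. Replicate 4 of ZT8 stood apart in 6 named genes: it was high for Ciart (ratio 0.9168), Il22ra2 (0.9443), Slc43a1 (0.879), Fkbp5 (0.9339) and Herpud1 (0.8354) and low for Srsf6 (0.8626). At ZT4, replicate 4 was low for Bhlhe40 (0.916) and Sfpq (0.9642), replicate 2 was low for Mt1 (0.8464) and Ndufa10 (0.8993), replicate 3 was high for Klf2 (0.8566) and Kcnq1ot1 (0.8855), and replicate 1 was high for Hexim1 (0.85). At ZT16, replicate 1 was high for Clock (0.861), Plcg1 (0.8473) and Iscu (0.9429), replicate 3 was low for Nfkbid (0.82903) and high for Fdx1 (0.8435) and Isca1 (0.8799), and replicate 4 was high for Mepce (0.82901). At ZT20, replicate 4 was low for Mepce (0.913).

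Control probes stood apart on 5 arrays. The actin 3' minus 5' difference was high for replicate 1 of ZT20 (0.8338) and replicate 2 of ZT4 (0.9517). The hybridisation controls were low for replicate 1 of ZT4 (0.8863, level 7.78 log2) and high for replicate 1 of ZT16 (0.9278), and the 18S rRNA probes were low for replicate 2 of ZT20 (0.8591).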

How the results depend on the processing

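The 46 called genes named by rule kept their direction in every alternative run, and 24 of them kept their call whichever aged array was left out. Counts moved more. With array weights the contrast called 1422 genes (614 higher, 808 lower), with 8 glucocorticoid falls, 2682 for ZT8 minus ZT4, 4 for ZT20 minus ZT16, 365 departures from a repeat, 2077 with a 12 h component and 980 age differences (296 rises, 174 falls). Without the 4 arrays of lowest weight (replicate 1 of ZT12, 3 of ZT0, 4 of ZT8 and 4 of ZT20; chosen after seeing the data) the same counts were 1281 (551, 730), 7, 1412, 28, 152, 2178 and 415 (176, 69), and 8 genes passed all 4 pairwise differences. With the 16 arrays alone they were 751 (434, 317), 7 glucocorticoid falls, 3 past all 4 pairs, 766 and 13; as 2 groups of 8, 580 genes were called (351 higher). Cell mixture scores gave 163 (107, 56), 2 glucocorticoid falls and 202 with a 12 h component, and a rule of at least 1.5-fold 116 (73, 43). Glucocorticoid falls were 2 with no filter and 7 with 48 arrays. ZT20 minus ZT16 called 1 gene with no filter, the lowest 50% left out, the mean of probe sets, cyclic loess, trend and robust variance or cell mixture scores. Of the 374 genes, 373 were kept with array weights, 365 without the 4 arrays, 353 with cyclic loess and 141 with cell mixture scores.

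With the replicate number as a block, 350 genes were called (199 higher, 151 lower), 314 of them among the 374, and glucocorticoid falls were 2; the other counts stayed within 1.5 times. By the labels the samples of a block share only a number, and 9 of 24 arrays correlated best with their own number.

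Leaving out 1 array gave 127 to 618 called genes, 78 to 348 rises, 49 to 296 falls, 0 to 7 glucocorticoid falls, 0 to 1 past all 4 pairs, 76 to 746 for ZT8 minus ZT4, 0 to 4 for ZT20 minus ZT16, 39 to 90 departures, 382 to 969 with a 12 h component, and 177 to 330 age differences with 50 to 131 rises and 12 to 46 falls. Clock genes near 0 changed sign: Clock was -0.0204 with the mean of probe sets and -0.0345 with cell mixture scores, Nfil3 0.0055 with cyclic loess and Ciart -0.0307 without the 4 arrays. With 1 array left out, Clock ran from -0.0071 to 0.0209, Cry2 from -0.0879 to 0.0299 and Nfil3 from -0.0812 to 0.0396. The cause of these changes was not tested. Scaling moved the median contrast of all genes between -0.018 and -0.0045 log2.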
